A study of Mus musculus with 24 samples.

Results

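The unfolded protein response and the integrated stress response were followed through 36 genes among the 24443 gene names of each deposited table. The genes were taken by name: 8 stress sensors and transcription factors, 11 targets of the transcription factor ATF4, 14 chaperones and folding enzymes of the endoplasmic reticulum (ER), and 3 genes of ER-associated degradation. All 36 names were found in each table. The rule itself uses names only, but the members were chosen with earlier results of these data known.

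Hepatocytes secrete most plasma proteins, and they fold them in the ER. When unfolded proteins collect there, 3 sensors in the ER membrane respond: PERK (gene Eif2ak3), IRE1α (Ern1) and ATF6 (Atf6). PERK phosphorylates the initiation factor eIF2α, which slows most translation but favours translation of ATF4 mRNA, and other kinases reach the same point from amino acid shortage, viral RNA or heme shortage, which is why that arm is called integrated. IRE1α splices Xbp1 mRNA and ATF6 is cut to release a transcription factor, and together these induce chaperones and the degradation machinery. ATF4 induces genes of amino acid synthesis and transport, the factor CHOP (Ddit3) and its own feedback inhibitors. The sensors and ATF4 are controlled largely at the level of protein, and a value for the whole Xbp1 gene does not separate the spliced form.

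Liver RNA came from male C57BL/6 mice in 5 groups with values (n = 4 each), all either fed ad lib or fasted overnight. WT mice were Bcl6 fl/fl without Cre, and were sampled fed and fasted. Fed Bcl6LKO mice were Bcl6 fl/fl;Alb-Cre, so that albumin-driven Cre deleted Bcl6 in hepatocytes only and left it in other liver cells, fasted PparaKO mice were Ppara-/- in the whole body, and fasted DKO mice were Ppara-/-;Bcl6 fl/fl;Alb-Cre. Both Cre groups therefore differed from WT in the transgene as well, the labels name no floxed allele in PparaKO mice, and fasted Bcl6LKO livers (4 samples in the labels) were not analysed here. BCL6 is a transcriptional repressor, and PPARα is the nuclear receptor that drives fat oxidation in fasting.

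Levels are the deposited log2 values, scaled within each table of 8 libraries, and they were compared within a table only. A gene with a mean under 4 was not tested, a call needed an adjusted p under 0.05 over all tested genes, and differences are on the log2 scale with their standard error (SE). Between 11910 and 12115 genes were tested per table. Ppara was lower in PparaKO (-1.04, SE 0.08) and DKO livers (-1.77, SE 0.19) with no overlap with WT, and Bcl6 was lower in Bcl6LKO livers (-1.53, SE 0.45) with overlap, whereas in DKO livers Bcl6 was not called (-0.39, SE 0.47), with fasted WT libraries from 6.95 to 9.39 and DKO libraries from 7.32 to 8.13. Of 9 hepatocyte markers none was under a mean of 4 in any table. That each library came from its own mouse is not stated in the labels, and the p-values carry the spread between libraries only, part of which may be technical. Read depth is unknown because the values are not counts.

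One group stood apart before any test. The 4 DKO libraries differed widely from each other for these genes: replicate 4 was the highest of the 4 for 31 of 33 tested members and replicate 1 the lowest for 24. The median member lay above its WT mean by 0.43 in replicate 1, 0.49 in replicate 2, 1.16 in replicate 3 and 1.52 in replicate 4. The median SD of the members was 0.61 over the DKO libraries and 0.13 over the WT libraries of that table, against 0.14 and 0.11 for all tested genes. The DKO counts of the members, their roles and the further lists are therefore also given without replicates 3 and 4, an alternative chosen after seeing the data.

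Short stretches of promoter are shown because they carry the letters through which these genes are known to be induced, and because members that share those letters can be compared. The ER stress response element (ERSE), bound by NF-Y together with ATF6 or XBP1, was searched as CCAAT, 9 bases of any kind and CCACG, and the related ERSE-II as ATTGG, 1 base of any kind and CCACG. The composite element of ATF4 and C/EBP factors (CARE) was searched as TGATGNAAT or TGATGNAAC, all on both strands. ERSE and ERSE-II share CCACG, and ATTGG is the reverse complement of CCAAT. Their spacing and orientation differ, and a stretch was counted for each element it matched. RefSeq promoter windows (GRCm38.p6, from 250 bases before to 50 after the start) were matched by symbol for 32 of the 36 members. An ERSE was found in 0.119% of all 32851 windows and in those of 8 members: Hspa5, Hsp90b1, Calr, Canx, Pdia6, Dnajc3, Creld2 and Syvn1. An ERSE-II was in 0.0365% of windows and in those of Herpud1 and Dnajb11, and a CARE in 1.77% of windows and in those of Asns, Chac1, Nupr1 and Herpud1. A match is a description of letters, not a measured binding site.

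The bases before the start site of Creld2, the chaperone-group gene that rose most in DKO livers, are given whole with the ERSE in capitals (chr15:88819396-88819645, plus strand), read there as its reverse complement. After it come Hspa5 (chr2:34772020-34772048, plus), Syvn1 (chr19:6046516-6046566, plus) and Canx (chr11:50325784-50325834, minus), each with the ERSE in capitals, Canx being a member with this element that was not called in DKO livers.
Creld2: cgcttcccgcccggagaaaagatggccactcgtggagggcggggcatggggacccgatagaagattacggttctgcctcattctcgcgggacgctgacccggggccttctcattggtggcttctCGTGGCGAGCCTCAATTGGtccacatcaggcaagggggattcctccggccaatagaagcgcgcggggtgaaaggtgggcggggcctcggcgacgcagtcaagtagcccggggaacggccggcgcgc
Hspa5: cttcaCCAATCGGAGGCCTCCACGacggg
Syvn1: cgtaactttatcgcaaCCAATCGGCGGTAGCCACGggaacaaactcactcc
Canx: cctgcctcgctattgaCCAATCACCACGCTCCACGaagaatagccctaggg

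Herpud1, the only member called with a fold over 2 in Bcl6LKO livers, holds both kinds of element, an ERSE-II (chr8:94386361-94386403, plus) and a CARE (chr8:94386300-94386340, plus). They are shown with the CARE of Nupr1 (chr7:126625568-126625586, minus), the member that rose most in DKO livers, of Asns (chr6:7693219-7693237, minus) and of Chac1 (chr2:119351032-119351072, plus), which was not called in any comparison. Capitals mark the element, and the CARE of Nupr1, Chac1 and Herpud1 reads as the reverse complement.
Herpud1 ERSE-II: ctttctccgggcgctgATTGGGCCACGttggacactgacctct
Herpud1 CARE: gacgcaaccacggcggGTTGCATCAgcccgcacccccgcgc
Nupr1: gccagATTGCATCAgacag
Asns: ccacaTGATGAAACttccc
Chac1: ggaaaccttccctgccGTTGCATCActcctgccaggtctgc

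Fasted DKO livers against fasted WT livers showed a rise of the module. Of 33 tested members, 23 rose and 0 fell, against 19.3% of all tested genes higher and 20.8% lower. 16 rose with a fold over 2, against 3.07% of all tested genes, and in 24 members every DKO library lay above every WT library, against 18.7%. The median difference of the members was 1.06 and that of all genes 0.0027. By role, 7 of 8 sensors and transcription factors rose, 5 of 8 tested ATF4 targets, 10 of 14 chaperones and folding enzymes and 1 of 3 degradation genes. At an unadjusted p under 0.05, limma gave 26 members higher and 0 lower. In a bulk sample a change in the share of a cell type and a change of RNA per cell cannot be told apart.

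Removal of DKO replicates 3 and 4 gave 23 members higher and 0 lower (18.7% and 20% of all genes) and lowered the sizes. The median difference became 0.48, with 7 members over 2-fold in place of 16. By role 7 of 8 sensors and factors, 4 of 8 ATF4 targets, 11 of 14 chaperones and 1 of 3 degradation genes then rose. At an unadjusted p under 0.05, limma gave 23 higher and 1 lower, and in 24 members both DKO libraries lay above every WT library, against 27.3% of all tested genes. Asns was the only member whose call was lost (1.13, adjusted p = 0.212) and Hsp90b1 the only one gained (0.22, adjusted p = 0.0405). The tested genes stayed those with a mean of at least 4 over all 8 libraries. The removed libraries therefore still had a part in which genes were tested. Psat1 entered the test only through its DKO values, since its WT mean is under 4, and it is among the 4 ATF4 targets and 23 members counted here. With all libraries kept, 22 of 32 members rose when the WT mean had to reach 4. That filter kept Nupr1 and Mthfd2, with WT means of 4.58 and 4.22 in this table. The same WT libraries averaged 2.77 and 3.80 in the fasting table and 3.08 and 3.36 in the PparaKO table. Neither gene was tested there, so the filter does not make their entry independent of the DKO libraries.

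**Figure D1:**
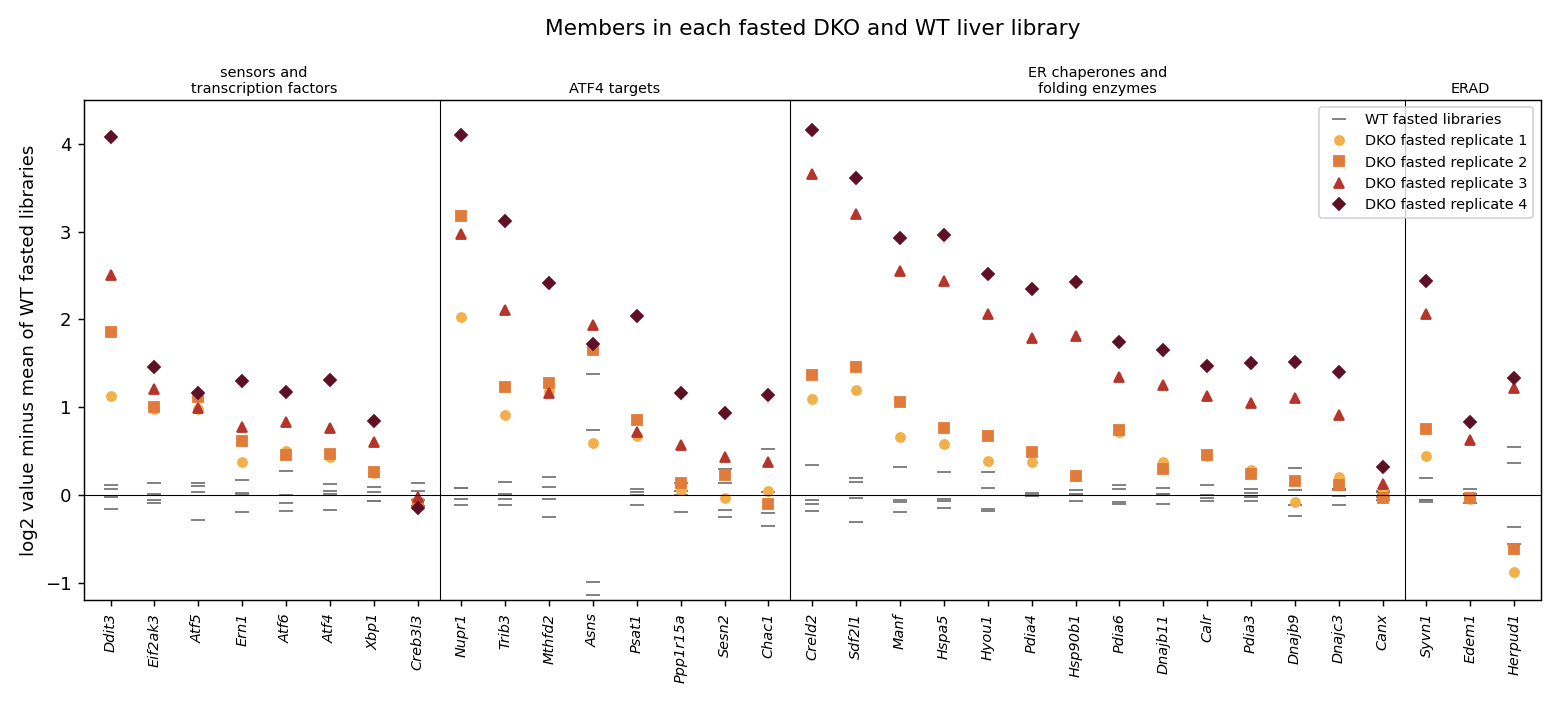
Log2 value of each of the 33 tested members in the 4 fasted DKO libraries (coloured symbols) and the 4 fasted WT libraries (grey bars), minus the mean of the WT libraries, by role. DKO replicate 4 is the highest of the 4 for 31 members, replicates 3 and 4 lie above replicates 1 and 2 for all 14 chaperones, and Atf5, Eif2ak3 and Mthfd2 have at least 3 DKO libraries close together.

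The 3 sensors rose in DKO livers with no overlap between groups. Eif2ak3, which encodes PERK, was 8.39, 8.26, 8.16 and 8.20 in WT replicates 1 to 4 and 9.23, 9.26, 9.46 and 9.71 in DKO replicates 1 to 4 (1.16, SE 0.11, 2.24-fold, adjusted p = 1.62e-05). Every DKO library of Eif2ak3 was well above the WT range, and the DKO libraries lay close together. Ern1, the gene of IRE1α, was 9.57, 9.40, 9.43 and 9.21 in WT and 9.78, 10.01, 10.18 and 10.70 in DKO livers (0.77, SE 0.17, adjusted p = 0.00452). Atf6 was 10.99, 10.72, 10.54 and 10.63 in WT and 11.22, 11.18, 11.55 and 11.89 in DKO livers (0.74, SE 0.16, adjusted p = 0.00352). For both, the lowest DKO library was only slightly above the highest WT library.

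Factors downstream of the sensors rose too, to very different extents. Xbp1 was 10.97, 10.98, 11.14 and 11.08 in WT and 11.30, 11.30, 11.65 and 11.89 in DKO livers (0.49, SE 0.13, adjusted p = 0.0107). Atf4 was 9.87, 9.69, 9.99 and 9.91 in WT and 10.29, 10.33, 10.63 and 11.18 in DKO livers (0.74, SE 0.17, adjusted p = 0.00597). The groups did not overlap for either, and DKO replicate 4 was highest. Ddit3, encoding the pro-apoptotic factor CHOP, was 6.36, 6.31, 6.08 and 6.21 in WT and 7.36, 8.10, 8.74 and 10.32 in DKO livers (2.39, SE 0.48, 5.24-fold, adjusted p = 0.00291). The DKO libraries of Ddit3 were spread over almost 3 log2 units, all above WT.

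Atf5, a factor related to ATF4 that is abundant in liver, behaved differently across libraries. Its level was 12.40, 11.98, 12.30 and 12.36 in WT and 13.24, 13.38, 13.25 and 13.42 in DKO livers (1.06, SE 0.10, 2.09-fold, adjusted p = 2.01e-05), so all 4 DKO libraries were at nearly one level. Creb3l3, which encodes the liver-enriched ER-bound factor CREBH, was the member of this group that was not called (-0.10, SE 0.08, adjusted p = 0.322). It stood at 12.13 to 12.40 in WT and 12.12 to 12.23 in DKO livers, and the groups overlapped.

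Among ATF4 targets, Nupr1 changed most. This stress-induced chromatin protein gene was 4.53, 4.47, 4.66 and 4.66 in WT and 6.61, 7.75, 7.55 and 8.68 in DKO livers (3.07, SE 0.33, 8.40-fold, adjusted p = 4.53e-05), with no overlap. The same fasted WT libraries read 2.72 to 2.81 for Nupr1 in the fasting table and 3.03 to 3.13 in the PparaKO table. The deposited level of a low gene therefore differs between tables, and its fold is given for 1 table only. Trib3, a pseudokinase that restrains ATF4 and AKT signalling, was 7.42, 7.69, 7.55 and 7.49 in WT and 8.45, 8.76, 9.65 and 10.66 in DKO livers (1.84, SE 0.38, 3.58-fold, adjusted p = 0.0034). All DKO libraries of Trib3 were above WT, and replicates 3 and 4 were the highest.

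Enzymes of serine, folate and asparagine metabolism made up the other ATF4 targets that rose. Mthfd2, a mitochondrial folate enzyme, was 4.42, 4.17, 3.98 and 4.32 in WT and 5.41, 5.50, 5.39 and 6.64 in DKO livers (1.51, SE 0.25, 2.85-fold, adjusted p = 0.000869). Psat1, of serine synthesis, was 3.42, 3.54, 3.57 and 3.60 in WT and 4.21, 4.39, 4.25 and 5.57 in DKO livers (1.07, SE 0.26, 2.11-fold, adjusted p = 0.00764). In both, 3 DKO libraries were close together and replicate 4 was far above them. Asns, asparagine synthetase (chromosome 6, 7675169 to 7693254), was 6.22, 6.08, 8.59 and 7.96 in WT and 7.81, 8.87, 9.15 and 8.93 in DKO livers (1.48, SE 0.53, 2.79-fold, adjusted p = 0.0474). WT replicates 3 and 4 of Asns overlapped the DKO libraries, and its difference was no longer called after removal of WT replicate 1 or 2 (1.15 and 1.10, adjusted p = 0.125 and 0.126) or DKO replicate 2, 3 or 4 (1.32 to 1.42, adjusted p from 0.0881 to 0.111).

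The ATF4 targets that were not called had their highest value in DKO replicate 4. They were Chac1, a glutathione-degrading enzyme (0.37, SE 0.27), Sesn2, a sestrin that restrains mTORC1 (0.39, SE 0.19, adjusted p = 0.133), and Ppp1r15a, the GADD34 subunit that dephosphorylates eIF2α (0.48, SE 0.21, adjusted p = 0.0902). Without DKO replicate 1, Sesn2 (0.53, adjusted p = 0.042) and Ppp1r15a (0.62, 0.0354) were called. Phgdh, Aldh1l2 and Stc2 had a mean under 4 in every table and were not tested. Phgdh, the first enzyme of serine synthesis, was at or under 0.19 in every library of the 4 tables.

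Chaperones and folding enzymes were widely spread between DKO libraries. Their median SD was 0.87, against 0.97 for the 3 degradation genes and 0.31 for the sensors and factors. Single chaperones ran from 0.15 for Canx to 1.57 for Creld2. The tested ATF4 targets ran from 0.41 for Sesn2 to 0.99 for Trib3, and the sensors and factors from 0.05 for Creb3l3 to 1.26 for Ddit3. Over the 14 genes the median difference from the WT mean was 0.38 in replicate 1, 0.48 in replicate 2, 1.57 in replicate 3 and 2.05 in replicate 4, and replicate 4 was the highest for 14 of 14. Over the 8 tested ATF4 targets the same medians were 0.64, 1.04, 0.94 and 1.88. The medians of replicates 2 and 3 therefore stood far apart for the chaperones and close together for the ATF4 targets. Single ATF4 targets went both ways. Replicate 3 was above replicate 2 for Trib3 (9.65 and 8.76), Asns, Chac1, Sesn2 and Ppp1r15a. It was below replicate 2 for Nupr1 (7.55 and 7.75), Psat1 and Mthfd2. The lists share these libraries, and the contrast between their medians was not put to a test.

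Hspa5 encodes BiP, the main HSP70 chaperone of the ER (chromosome 2, 34771970 to 34777547, GRCm38). It was 13.51, 13.10, 13.20 and 13.18 in WT and 13.83, 14.01, 15.69 and 16.21 in DKO livers (1.69, SE 0.46, 3.23-fold, adjusted p = 0.0147). DKO replicates 1 and 2 of Hspa5 were just above the WT range and replicates 3 and 4 were more than 2 log2 units above it. Without replicates 3 and 4 the difference was 0.68 (adjusted p = 0.00184).

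Of the chaperone group only Creld2, Sdf2l1 and Manf rose more than Hspa5 (1.69). Creld2, an ER protein induced by ATF6 (chromosome 15, 88819646 to 88826683), was 8.61, 8.17, 8.21 and 8.09 in WT and 9.36, 9.63, 11.93 and 12.43 in DKO livers (2.57, SE 0.60, 5.94-fold, adjusted p = 0.00668). Sdf2l1, a partner of ER HSP40 proteins, was 7.88, 7.93, 7.69 and 7.42 in WT and 8.93, 9.18, 10.93 and 11.35 in DKO livers (2.37, SE 0.47, 5.16-fold, adjusted p = 0.00272). Manf, a secreted ER stress protein, was 9.80, 9.28, 9.40 and 9.42 in WT and 10.13, 10.54, 12.02 and 12.41 in DKO livers (1.80, SE 0.43, 3.48-fold, adjusted p = 0.00752). In all 3 genes every DKO library exceeded every WT library, with replicates 3 and 4 far above replicates 1 and 2. Without replicates 3 and 4 the differences were 1.23 for Creld2, 1.33 for Sdf2l1 and 0.86 for Manf, all still called.

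Nucleotide exchange and disulfide formation were covered by Hyou1, Pdia4 and Pdia6. Hyou1, the large HSP70-type partner of BiP, was 11.75, 11.57, 11.33 and 11.30 in WT and 11.87, 12.16, 13.55 and 14.01 in DKO livers (1.41, SE 0.41, 2.66-fold, adjusted p = 0.019). Pdia4, a protein disulfide isomerase, was 11.70, 11.72, 11.74 and 11.70 in WT and 12.09, 12.21, 13.50 and 14.07 in DKO livers (1.25, SE 0.38, 2.38-fold, adjusted p = 0.0222). Pdia6, another isomerase, was 10.86, 10.90, 10.68 and 10.71 in WT and 11.50, 11.53, 12.14 and 12.53 in DKO livers (1.14, SE 0.20, 2.20-fold, adjusted p = 0.00127). None of these groups overlapped, and the lowest DKO library was nearest to WT for Hyou1.

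The remaining chaperones rose by less than 2-fold or were not called. Dnajb11 (0.89, SE 0.26), the lectin chaperone Calr (0.88, SE 0.21) and the isomerase Pdia3 (0.77, SE 0.24) rose. Hsp90b1, the ER HSP90, missed the threshold at a larger difference (1.17, SE 0.43, adjusted p = 0.0537), with WT at 13.46 to 13.58 and DKO libraries at 13.74, 13.74, 15.34 and 15.95. It was called without DKO replicate 1 (1.48, adjusted p = 0.0179) or 2 (1.49, 0.0199), and also under quantile normalization (1.17, 0.028). A replicate block gave a call too (1.17, 0.0472), though replicate numbers did not pair the samples of this comparison. Dnajc3 (0.66, SE 0.24, adjusted p = 0.0516) and Dnajb9 (0.68, SE 0.31, adjusted p = 0.104) were called without replicate 1 (0.81, adjusted p = 0.0249, and 0.93, 0.0229), and Dnajc3 also without replicate 2 (0.84, 0.0175). Canx, the membrane-bound relative of Calr, was at 12.54 to 12.64 in WT and 12.56 to 12.91 in DKO livers (0.12, SE 0.09, adjusted p = 0.302).

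Leaving out DKO replicate 3 lowered the count of members higher from 23 to 18. Besides Asns, the calls lost were those of Hyou1 (1.19, adjusted p = 0.0544), Dnajb11 (0.78, 0.0557), Pdia4 (1.07, 0.0623) and Pdia3 (0.67, 0.0732). The call of Pdia3 was also lost without WT replicate 1, 2, 3 or 4 (differences 0.74 to 0.79).

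ER-associated degradation was mixed. Syvn1, the ubiquitin ligase HRD1, was 10.38, 10.11, 10.13 and 10.13 in WT and 10.63, 10.95, 12.25 and 12.63 in DKO livers (1.42, SE 0.38, 2.68-fold, adjusted p = 0.0123), with no overlap. Herpud1, an ER membrane protein that organises HRD1 complexes, was 13.27, 13.08, 12.35 and 12.16 in WT and 11.84, 12.10, 13.93 and 14.04 in DKO livers (0.26, SE 0.49, adjusted p = 0.703). DKO replicates 1 and 2 of Herpud1 were below every WT library and replicates 3 and 4 above every one, so its mean difference describes none of the libraries. Edem1, which extracts misfolded glycoproteins, was at 11.33 to 11.49 in WT and at 11.37, 11.39, 12.05 and 12.25 in DKO livers (0.35, SE 0.18, adjusted p = 0.158).

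**Figure D2:**
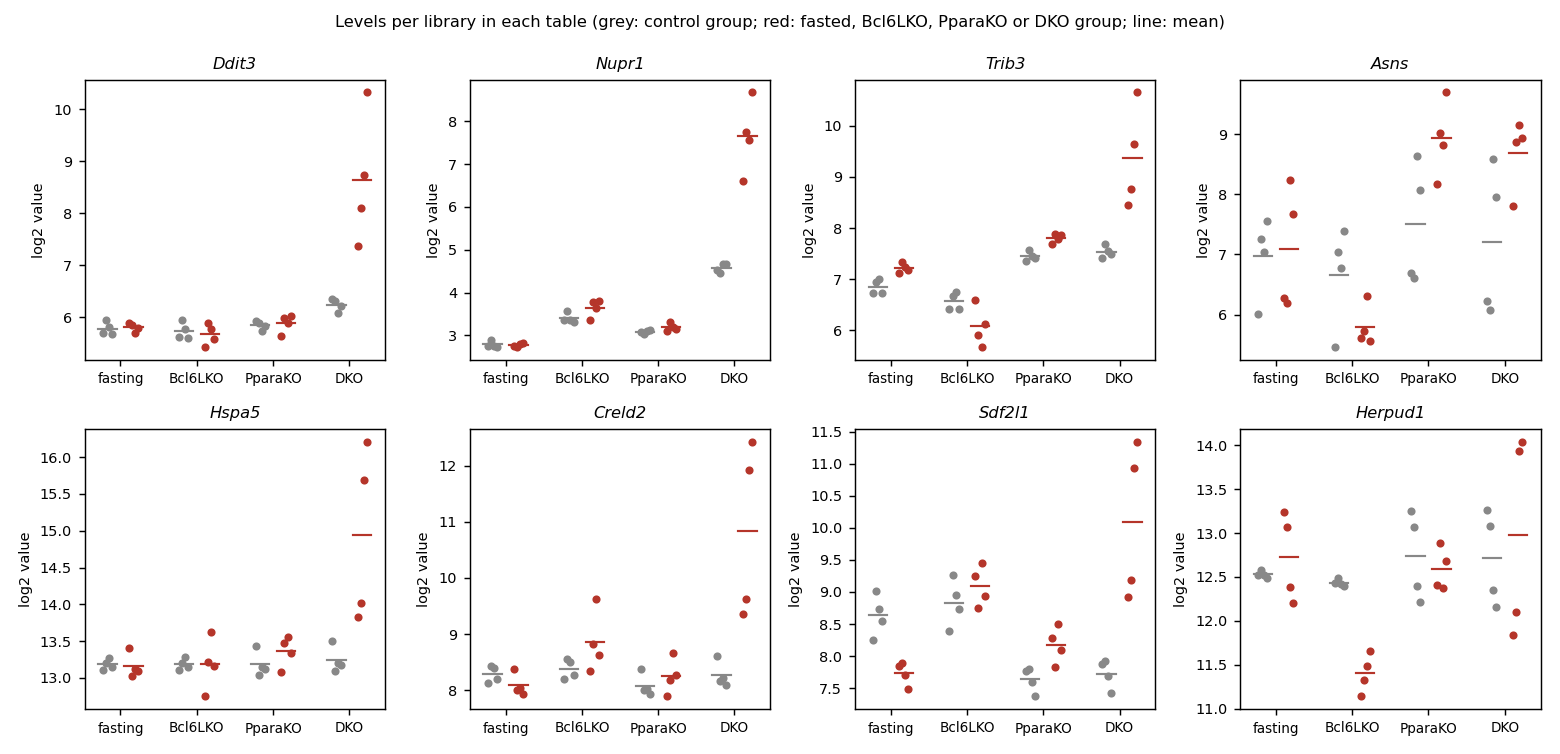
Deposited log2 levels of 4 ATF4-arm genes (top) and 4 ER genes (bottom) in each library of the 4 tables, with the control group in grey, the fasted or knockout group in red and a line at each mean. Ddit3 lies above WT in all 4 DKO libraries and within or near the control range in the other tables, and Herpud1 lies below WT in all 4 Bcl6LKO libraries and on both sides of WT in the DKO libraries.

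Members that hold a promoter element were found among both the called and the uncalled. Members with and without an element were not tested against each other. Of all 33 tested members 23 rose in DKO livers (median 1.06), and of all tested genes 19.3%. Of the 8 members with an ERSE, 5 rose (median 1.15), namely Hspa5, Creld2, Pdia6, Calr and Syvn1, a share no higher than that of the members as a whole. Hsp90b1, Dnajc3 and Canx, which hold the same letters, were not called (limma, adjusted p = 0.0537, 0.0516 and 0.302). Every DKO library lay above every WT library for 7 of the 8, for 24 of all 33 tested members and for 18.7% of all tested genes. Of the 4 with a CARE, Nupr1 and Asns rose whereas Chac1 and Herpud1 were not called. Without DKO replicates 3 and 4 the counts were 6 of 8 with an ERSE and 1 of 4 with a CARE, against 23 of 33 members and 18.7% of all tested genes. Sdf2l1, which rose by 2.37, held none of the 3 elements in its window.

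Further genes of the same pathways, listed by function with earlier results known, are read against the 19.3% of all tested genes higher and 20.8% lower in DKO livers. Of 22 further ATF4 and stress response genes 11 rose and 2 fell (50% and 9.09%, median 0.57), and 10 rose and 3 fell without replicates 3 and 4. The stress factor Atf3 was at 4.63 to 4.92 in WT and 6.07, 6.91, 6.35 and 9.11 in DKO livers (2.38, SE 0.53), and the circulating stress hormone gene Gdf15 rose by 1.61 (SE 0.27). Ddit4, an mTORC1 inhibitor, rose by 1.68 (SE 0.59) with overlap, and was not called without replicates 3 and 4 (0.48, SE 0.30). Of 13 eIF2 kinases and eIF2 regulators only 2 rose and 1 fell (15.4% and 7.69%, median 0.09), with the same counts without replicates 3 and 4.

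In ER folding, disulfide formation and glycoprotein quality control 18 of 26 rose and 0 fell (69.2%, median 0.50), or 15 and 0 without replicates 3 and 4, including Nucb2 (1.69, SE 0.32), the ER prolyl isomerase Fkbp11 (1.62, SE 0.16) and Txndc11 (1.21, SE 0.13). In the protein entry machinery of the ER 11 of 22 rose and 0 fell (50%, median 0.37), led by the channel subunit Sec61a1 (0.74, SE 0.09), with 9 and 1 without replicates 3 and 4. In further degradation genes 10 of 17 rose and 2 fell (58.8% and 11.8%), or 8 and 3. Derl3, a degradation channel gene, was 5.99, 6.29, 9.71 and 10.53 in DKO livers against 5.12 to 6.23 in WT (2.57, SE 0.90). Replicates 1 and 2 of Derl3 were at the WT level or just above it, and the gene was not called without the other two (0.58, SE 0.26). Of 8 ER-bound transcription factors and their proteases 4 rose and 2 fell (50% and 25%), with the same counts without replicates 3 and 4.

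Of 20 cytosolic tRNA synthetases 14 rose and 1 fell in DKO livers (70% and 5%), or 12 and 2 without replicates 3 and 4. In Bcl6LKO livers 3 rose and 6 fell (15% and 30%), where 18.3% of all tested genes were higher and 19.8% lower. Cars, a cysteinyl-tRNA synthetase, was 9.94, 9.74, 9.75 and 9.76 in DKO livers against 7.77 to 8.08 in fasted WT (1.89, SE 0.09), and 9.92 to 10.06 in Bcl6LKO livers against 8.82 to 9.36 in fed WT (0.95, SE 0.10). Tars rose by 1.10 (SE 0.08) in DKO and 0.79 (SE 0.08) in Bcl6LKO livers. From the mixed lists, the ER-bound factor gene Creb3l2 rose by 1.60 (SE 0.07) and 0.83 (SE 0.10), and Eif2b4, a subunit of the exchange factor for eIF2, by 1.31 (SE 0.07) and 1.08 (SE 0.06), while in Bcl6LKO livers their lists had 1 of 8 higher and 0 lower, and 2 of 13 higher and 2 lower. These 4 genes, set side by side after their values were seen, did not overlap WT in either comparison, and in PparaKO livers none of them was called, with differences from -0.08 to 0.16.

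Other measures moved with the DKO libraries. The acute phase gene Saa1 was 14.36, 13.89, 11.98 and 9.66 in DKO replicates 1 to 4 (WT 8.49 to 9.37), and the proliferation gene Mki67 was 8.08, 7.73, 6.92 and 6.27 (WT 5.81 to 6.12). Both were highest in the libraries where the chaperones were lowest, and their part in the result was not tested. Markers of exocrine pancreas, a tissue rich in ER, gave a summed log2 level of 5.97 to 6.09 in DKO and 5.98 to 6.21 in WT livers, with 12 of 13 genes under a mean of 4 and Cpb1, Amy2a5, Try5 and Rnase1 among those at 0. Plasma and B cell markers summed to 12.50 to 12.77 in DKO and 11.76 to 12.11 in WT livers; 6 of 9 were under 4, Jchain, Mzb1 and Tnfrsf17 among them, and the list also holds Derl3 and the hepatocyte-expressed Sdc1. Of 9 hepatocyte markers 3 rose, Alb (1.05), Ahsg (0.98) and Serpina1a (0.34), and 2 fell, Cyp2e1 (-2.03) and Ttr (-0.95), with a list median of -0.05, and their sum, in which Alb is by far the most abundant, was 21.15 to 21.34 against 20.56 to 20.73. Of 9 erythroid markers 8 fell. Of 10 endothelial markers 4 rose, of 11 stellate cell markers 3 and of 11 Kupffer cell markers 2, with 0 lower in each list. All 3 tested plasma and B cell markers rose, as did the 2 tested neutrophil markers (median 0.63). The neutrophil markers, with 6 of 8 under a mean of 4, summed to 6.06 to 7.06 in DKO and 5.70 to 5.88 in WT livers. Of all tested genes 19.3% rose and 20.8% fell. The part of these markers in the result was not tested.

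Fasted PparaKO livers, against the same fasted WT libraries, showed small changes. Of 30 tested members 7 rose and 3 fell, against 11.7% of all tested genes higher and 13.3% lower. The median difference was 0.12, and that of all genes 0.0055. Asns was the only member with a fold over 2, which 0.67% of all tested genes showed in that direction, at 6.69, 6.60, 8.64 and 8.07 in WT and 8.18, 9.02, 8.82 and 9.69 in PparaKO livers (1.42, SE 0.44, 2.68-fold, adjusted p = 0.0348). WT replicate 3 of Asns lay above PparaKO replicate 1, and the difference was no longer called after removal of WT replicate 1 or 2 (1.15 and 1.12, adjusted p = 0.09 and 0.0938) or PparaKO replicate 2, 3 or 4 (1.17 to 1.46, adjusted p from 0.0634 to 0.106).

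Among sensors and factors in PparaKO livers, Eif2ak3 was 8.39, 8.27, 8.18 and 8.22 in WT and 8.46, 8.93, 8.80 and 8.64 in knockout livers (0.44, SE 0.10, adjusted p = 0.00627), with no overlap. Atf5 rose by 0.40 (SE 0.10) from 12.02 to 12.41 in WT to 12.54 to 12.88, and Creb3l3 fell by 0.20 (SE 0.07). Ddit3 was 5.94, 5.90, 5.73 and 5.82 in WT and 5.63, 5.99, 5.90 and 6.02 in PparaKO livers (0.04, SE 0.09, adjusted p = 0.782), with full overlap. Atf4 was 9.89, 9.72, 10.00 and 9.92 in WT and 9.93, 10.12, 10.10 and 10.13 in PparaKO livers (0.19, SE 0.07, adjusted p = 0.0777). PparaKO replicate 1 of Atf4 lay among the WT libraries, and without it the gene was called higher (0.23, adjusted p = 0.0364).

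The other sensors overlapped WT in PparaKO livers. Atf6 was 10.97, 10.72, 10.56 and 10.64 in WT and 10.84, 10.96, 10.70 and 10.76 in PparaKO livers (0.09, SE 0.09). Ern1 was 9.54, 9.39, 9.42 and 9.22 in WT and 9.47, 9.51, 9.42 and 9.37 in PparaKO livers (0.05, SE 0.07). Xbp1, the mRNA that IRE1α splices, was 11.01, 11.01, 11.16 and 11.10 in WT and 11.00, 11.25, 11.26 and 11.06 in PparaKO livers (0.07, SE 0.07). None of these 3 was called. Trib3, next to Asns, was the other ATF4 target that rose (0.35, SE 0.07, adjusted p = 0.00408), all PparaKO libraries at 7.69 to 7.88 above WT at 7.36 to 7.58.

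Chaperones in PparaKO livers gave 3 of 14 higher and 1 lower (21.4% and 7.14%), against 11.7% and 13.3% of all tested genes. Sdf2l1 was 7.76, 7.80, 7.60 and 7.38 in WT and 8.29, 7.83, 8.51 and 8.09 in PparaKO livers (0.54, SE 0.14, adjusted p = 0.0141), with replicate 2 only just above WT. Calr rose by 0.25 (SE 0.07) and Dnajb11 by 0.19 (SE 0.06), while Dnajb9, an HSP40 that restrains IRE1α, fell by 0.39 (SE 0.12) with overlap. Hspa5 was 13.43, 13.05, 13.14 and 13.12 in WT and 13.07, 13.48, 13.56 and 13.34 in PparaKO livers, overlapping (0.18, SE 0.12, adjusted p = 0.288). Edem1 fell by 0.25 (SE 0.06). Saa1 ranged from 12.62 to 16.39 in PparaKO livers against 9.20 to 9.89 in WT.

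The count in PparaKO livers moved with single libraries. It was 4 higher without WT replicate 2 or PparaKO replicate 3, 10 without PparaKO replicate 1, and 1 lower without WT replicate 1 or PparaKO replicate 1, 3 or 4. Calls that were lost when at least 1 library was left out were those of Asns, Calr, Creb3l3, Dnajb11 and Dnajb9. DKO and PparaKO livers were not tested against each other, because their tables were scaled separately and share the WT libraries. Side by side, Hspa5 differed from WT by 1.69 and 0.18, Ddit3 by 2.39 and 0.04, Trib3 by 1.84 and 0.35, and Asns by 1.48 and 1.42.

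**Figure D3:**
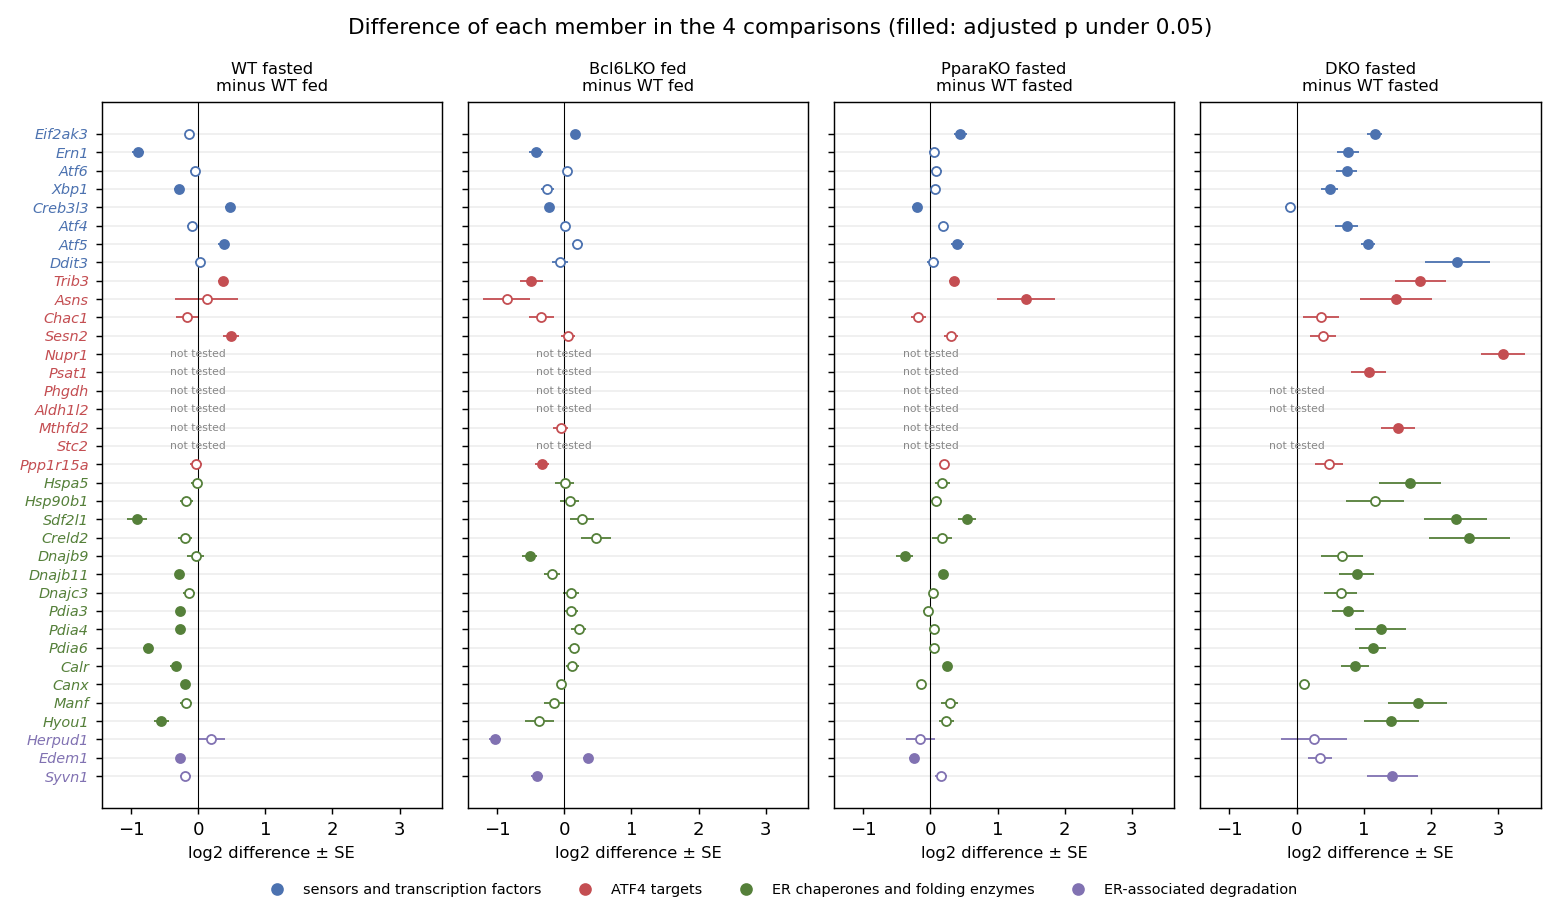
Difference of each member (log2, ± SE, n = 4 per group) in the 4 comparisons, filled where the adjusted p was under 0.05 and coloured by role. Most members are filled and to the right of 0 in DKO livers, 8 chaperones are filled and to the left after fasting, and the only points past 1 in size outside DKO livers are Herpud1 in Bcl6LKO and Asns in PparaKO livers.

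Fasting of WT mice lowered part of the ER folding machinery and raised a few ATF4-linked genes. Of 30 tested members 4 rose and 11 fell, against 11.9% of all tested genes higher and 11% lower, and none changed by over 2-fold. All fasted libraries lay above all fed ones for 3 members and below them for 11, against 13.7% and 12.6% of all tested genes. The median was -0.17 for the members and -0.0025 for all genes. By role, 8 of 14 chaperones fell and 0 rose, 2 of 5 tested ATF4 targets rose and 0 fell, and 2 sensors or factors moved each way. At an unadjusted p under 0.05, limma gave 12 members lower and 4 higher.

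Ern1, the only sensor that fell with fasting, was 10.51, 10.18, 10.43 and 10.56 in replicates 1 to 4 of the fed group and 9.67, 9.52, 9.55 and 9.35 in those of the fasted group (-0.90, SE 0.09, adjusted p = 0.00014). Its target Xbp1 was 11.35, 11.38, 11.20 and 11.59 in fed and 11.03, 11.04, 11.19 and 11.13 in fasted livers (-0.29, SE 0.08, adjusted p = 0.0238). The groups did not overlap for either gene, though for Xbp1 fed and fasted replicate 3 were almost equal. That call of Xbp1 was lost without fed replicate 2 (-0.29, adjusted p = 0.0501), fasted replicate 1 (-0.26, 0.0583) or fasted replicate 2 (-0.27, 0.0616). Eif2ak3 was 8.36, 8.26, 8.41 and 8.32 in fed and 8.32, 8.21, 8.12 and 8.15 in fasted livers (-0.14, SE 0.06, adjusted p = 0.114), with overlap, and was called without fasted replicate 1 (-0.18, adjusted p = 0.0458). Atf6 was 10.76, 10.71, 10.75 and 10.81 in fed and 10.96, 10.71, 10.55 and 10.63 in fasted livers (-0.04, SE 0.08), on both sides of the fed range.

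Creb3l3, whose product is known to act in fasted liver, was 11.79, 11.85, 11.87 and 11.67 in fed and 12.21, 12.15, 12.40 and 12.31 in fasted livers (0.47, SE 0.07, adjusted p = 0.000891), all fasted libraries above all fed ones. Atf5 rose by 0.38 (SE 0.09) with overlap. Atf4 was 9.96, 9.86, 9.98 and 10.05 in fed and 9.87, 9.70, 9.99 and 9.90 in fasted livers (-0.10, SE 0.07, adjusted p = 0.32). Ddit3 was 5.69, 5.94, 5.81 and 5.69 in fed and 5.88, 5.85, 5.70 and 5.78 in fasted livers (0.02, SE 0.07, adjusted p = 0.859). Both overlapped. Of ATF4 targets Sesn2 rose by 0.49 (SE 0.12, adjusted p = 0.0134) and Trib3 by 0.37 (SE 0.08, adjusted p = 0.008). Chac1 (-0.17, SE 0.16), Ppp1r15a (-0.02, SE 0.09) and Asns (0.13, SE 0.47) were not called.

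Of the chaperones, Sdf2l1 and Pdia6 fell most with fasting. Sdf2l1 was 8.25, 9.01, 8.74 and 8.54 in fed and 7.85, 7.89, 7.70 and 7.48 in fasted livers (-0.90, SE 0.15, adjusted p = 0.00208). Pdia6 was 11.45, 11.78, 11.59 and 11.58 in fed and 10.91, 10.95, 10.75 and 10.78 in fasted livers (-0.75, SE 0.07, adjusted p = 0.000123). Hyou1 fell by 0.55 (SE 0.11) and Calr by 0.34 (SE 0.08), and fed and fasted libraries did not overlap for any of these 4. Smaller falls were called for Dnajb11, Pdia3, Pdia4 and Canx (-0.28 to -0.19), and Edem1 fell by 0.26 (SE 0.05). The main chaperone gene Hspa5 was 13.11, 13.20, 13.27 and 13.15 in fed and 13.41, 13.02, 13.12 and 13.10 in fasted livers, with fasted replicate 1 above and replicate 2 below the fed range (-0.02, SE 0.08, adjusted p = 0.868).

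The calls of Dnajb11 and Pdia3 were lost without fed replicate 3 (-0.27, adjusted p = 0.0544, and -0.26, 0.0537) or fasted replicate 4 (-0.25, 0.056, and -0.24, 0.0554). Creld2 (-0.20, SE 0.10) and Manf (-0.18, SE 0.10) were called without fasted replicate 1 (-0.30, adjusted p = 0.0305, and -0.28, 0.0181). The list counts that follow are read against 11.9% of all tested genes higher and 11% lower with fasting. Beyond the 36 genes, 14 of 26 further folding genes fell and 0 rose, led by Fkbp11 (-0.70, SE 0.09) and the cyclophilin Ppib (-0.59, SE 0.06). In the entry machinery 13 of 22 fell and 0 rose, led by Ssr1 (-0.53, SE 0.04), and 8 of 20 tRNA synthetases fell and 0 rose, led by Cars (-0.86, SE 0.10) and Tars (-0.76, SE 0.08). Of 22 further ATF4 and stress response genes 5 rose and 1 fell, including Cth of cysteine synthesis (1.12, SE 0.13). In the fasted livers 8 of 9 tested erythroid markers were higher and 1 was lower, and of 11 stellate cell and fibroblast markers 5 were lower and 0 higher, with Col3a1 at -1.28 (SE 0.14) and Col1a1 at -0.92 (SE 0.15). Their part in the result was not tested.

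Fed Bcl6LKO livers against fed WT livers changed few members. Of 31 tested members 2 rose and 7 fell, against 18.3% of all tested genes higher and 19.8% lower. The median difference was -0.05 for the members and -0.0074 for all genes. By role, 1 sensor or factor rose and 2 fell, 2 of 6 tested ATF4 targets fell, 1 of 14 chaperones fell, and of the 3 degradation genes 1 rose and 2 fell. At an unadjusted p under 0.05, limma gave 3 higher and 9 lower. Of 10 endothelial markers 6 rose, of 11 stellate cell and fibroblast markers 4, and of 5 tested plasma and B cell markers 3, with 0 lower in each list, and their part in the result was not tested. Hepatocyte markers gave 2 of 9 higher, Alb (1.84) and Ahsg (0.81), and 3 lower.

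Herpud1 (chromosome 8, 94386438 to 94395377) changed most in Bcl6LKO livers and was the only member called with a fold over 2, which 1.53% of all tested genes showed in that direction. It was 12.43, 12.48, 12.42 and 12.40 in fed WT and 11.14, 11.32, 11.48 and 11.66 in Bcl6LKO livers (-1.03, SE 0.09, 2.04-fold lower, adjusted p = 1.06e-05). WT libraries were almost identical, and every Bcl6LKO library lay well below them. Its partner Syvn1 fell as well, from 10.13 to 10.58 in WT to 9.79 to 10.06 in Bcl6LKO livers (-0.40, SE 0.09, adjusted p = 0.00644). Edem1, in contrast, rose by 0.35 (SE 0.07, adjusted p = 0.00301), from 11.74 to 11.89 in WT to 12.03 to 12.33.

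Ern1 was 10.61, 10.24, 10.52 and 10.66 in WT and 9.87, 10.23, 10.16 and 10.08 in Bcl6LKO livers (-0.42, SE 0.10, adjusted p = 0.00739). Bcl6LKO replicate 2 of Ern1 was only just below WT replicate 2. Creb3l3 fell by 0.22 (SE 0.06, adjusted p = 0.0129). Eif2ak3 was 8.40, 8.29, 8.46 and 8.37 in WT and 8.53, 8.60, 8.53 and 8.51 in Bcl6LKO livers (0.16, SE 0.05, adjusted p = 0.0375), with no overlap but a small gap, its call being lost without any one of 7 of the 8 libraries (0.13 to 0.17, adjusted p from 0.057 to 0.0985). Xbp1 was 11.37, 11.39, 11.19 and 11.63 in WT and 11.24, 11.15, 11.26 and 10.94 in Bcl6LKO livers (-0.25, SE 0.10, adjusted p = 0.0597). It was called lower without WT replicate 3 (-0.32, adjusted p = 0.0254), and Atf5 (0.19, SE 0.09) was called higher without Bcl6LKO replicate 1 (0.26, 0.0295).

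Atf4, Atf6 and Ddit3 overlapped WT in Bcl6LKO livers and were not called. Atf4 was 9.97, 9.85, 9.99 and 10.08 in WT and 9.89, 10.12, 9.96 and 9.96 in Bcl6LKO livers (0.01, SE 0.06). Atf6 was 10.76, 10.71, 10.75 and 10.82 in WT and 10.74, 10.87, 10.83 and 10.76 in Bcl6LKO livers (0.04, SE 0.05). Ddit3 was 5.61, 5.94, 5.77 and 5.61 in WT and 5.42, 5.89, 5.78 and 5.58 in Bcl6LKO livers (-0.06, SE 0.11).

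Dnajb9 was the only chaperone called (-0.52, SE 0.12, adjusted p = 0.0055), with Bcl6LKO libraries at 8.59 to 8.92 and WT at 8.94 to 9.51. Hspa5 was 13.10, 13.20, 13.28 and 13.15 in WT and 12.75, 13.21, 13.63 and 13.16 in Bcl6LKO livers (0.00, SE 0.14, adjusted p = 0.984). Bcl6LKO replicate 1 was below and replicate 3 above every WT library of Hspa5. Replicate 3 was the highest Bcl6LKO library for 13 of 14 chaperones, as in Creld2, at 8.34, 8.82, 9.63 and 8.63 against 8.20 to 8.55 in WT (0.47, SE 0.22, adjusted p = 0.121). Without that replicate Dnajb11 (-0.31, adjusted p = 0.021) and Hyou1 (-0.59, 0.0185) were called lower, and without replicate 1 Creld2 (0.64, 0.0364) was called higher.

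ATF4 targets gave 2 falls in Bcl6LKO livers. Trib3 was 6.42, 6.67, 6.75 and 6.41 in WT and 6.59, 5.90, 5.67 and 6.13 in Bcl6LKO livers (-0.49, SE 0.17, adjusted p = 0.044), with overlap through replicate 1. Ppp1r15a fell by 0.33 (SE 0.10, adjusted p = 0.0271). Both calls depended on single libraries: that of Trib3 was lost without WT replicate 2, 3 or 4 or Bcl6LKO replicate 2, 3 or 4 (adjusted p from 0.0529 to 0.111), and that of Ppp1r15a without WT replicate 1 or 3 or Bcl6LKO replicate 1 or 3 (0.0521 to 0.0698). Asns was 5.46, 7.03, 6.77 and 7.38 in WT and 5.61, 5.73, 6.31 and 5.56 in Bcl6LKO livers (-0.86, SE 0.35, adjusted p = 0.0743). WT replicate 1 of Asns was below every Bcl6LKO library, and without it the gene was called lower (-1.26, adjusted p = 0.000648). Chac1 (-0.34, SE 0.18) was called without WT replicate 4 (-0.51, adjusted p = 0.0324).

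Scaling matters for this comparison. When the back-transformed total of each library was made equal, the median of all genes moved to -0.22, and 0 members rose and 15 fell. Because that median moved in the same direction, the 15 is not read as a result about the members. Under that scaling Eif2ak3, Atf6 and Atf4 changed sign, so no direction holds for these 3 genes across scalings. The 7 members lower in the deposited values were also called lower there, and Edem1 was not called (0.13, adjusted p = 0.0893). The totals include the very abundant Alb, at 18.87 to 19.64 in fed WT and 21.10 to 21.22 in Bcl6LKO livers. Its part in this shift was not tested.

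**Figure D4:**
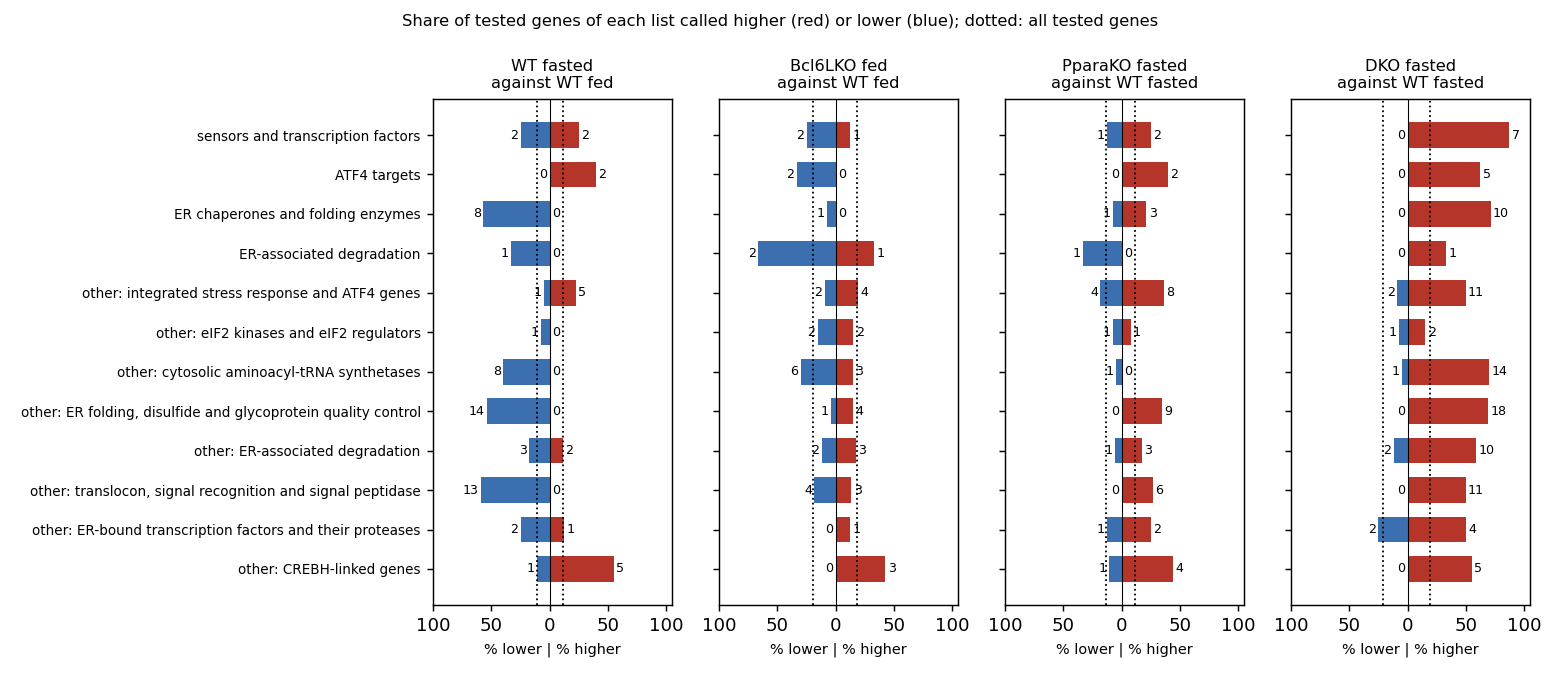
Share of tested genes called higher (red, right) or lower (blue, left) in each comparison for the 4 roles of the 36 members and for 8 further pathway lists, with the number called at each bar and dotted lines at the share over all tested genes. After fasting the folding, entry and tRNA synthetase lists extend to the left, and in DKO livers to the right.

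A few limits apply to single genes. Genes on the opposite strand overlap Atf5 (Nup62 and Il4i1), Syvn1 (Mrpl49), Pdia6 (Atp6v1c2), Pdia3 (Catsper2), Hsp90b1 and Ppp1r15a, and Rbm15b overlaps Manf on the same strand. The libraries were stranded, but whether reads were counted by strand is not given in the sources used here, so reads of these pairs may not be separated.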

How the data were processed

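The study made ribosome-depleted, stranded libraries from total liver RNA, used STAR for alignment to mm10 and HOMER for exon counts, and compared groups pair by pair in DESeq2, a step not repeated here. The authors deposited 4 tables of log2 values per library, scaled within each table by a transformation whose name is not given in the sources used here. Further columns with the fold change, p-value and adjusted p-value from the authors' comparisons were left aside. Samples were grouped by their labels. Genes at 0 in all 8 libraries of a table or with a mean below 4 were left out. Groups were compared within a table with limma 3.58.1 in R 4.3.3 (two-sided, prior spread following the mean, no covariate) on the values as deposited, and p-values were adjusted by Benjamini and Hochberg over all tested genes. The fit was tested on simulated data.

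The members and all gene lists were chosen with earlier results of these data known. Values in every library are given for members called with a fold over 2, in that comparison, and throughout for the sensors, Atf4, Ddit3, Xbp1 and Hspa5, other members by range, with up to 4 examples (those of largest difference among the called) per role, and up to 3 genes per further list. Other names were added where leaving out a library changed a call.

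Fed and fasted WT libraries share replicate numbers. Their deviations from the group means correlated by 0.26, 0.13, 0.21 and 0.15 for numbers 1 to 4, each number best with itself, so these numbers were taken to pair the samples. Numbers did not pair samples in the other tables. Read depth is unknown and limits how low genes can be read. Alternatives were no filter, a mean of at least 6, log2(2 to the power of the value, plus 16), other scalings, a constant prior spread, a replicate block, leaving out each library and, added after seeing the data, a filter on the control mean and the DKO fit without replicates 3 and 4. Fits that left out libraries kept the genes tested on all 8 libraries. Motifs were searched in RefSeq promoter windows (GRCm38.p6). Gene positions and overlaps come from the GENCODE annotation of GRCm38.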

Additional observations from a re-analysis of the deposited data

Results flagged for a closer look

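Of 248 groups of 4 libraries examined, 6 held a library far from the other 3. That is a smaller share than the 1 in 20 that chance alone would give. Syvn1 in fasted WT replicate 1 stood at 10.32 in the fasting table (others 10.07 to 10.10), 10.32 in the PparaKO table and 10.38 in the DKO table, which is 1 library seen in 3 tables. Creb3l3 in PparaKO replicate 2 stood at 12.16 with the others at 12.08. In DKO replicate 4, Psat1 stood at 5.57 (next 4.39) and Mthfd2 at 6.64 (next 5.50).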

How the results depend on the processing

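The 23 members higher in DKO livers numbered from 21 to 26 under the other filters, scalings and prior spreads and 24 with a replicate block, and 0 were lower throughout. When single libraries were left out, the number higher was 18 to 28 and lower 0 to 0. For fasting it was 4 to 4 higher and 9 to 13 lower, for Bcl6LKO 1 to 3 higher and 6 to 7 lower, and for PparaKO 4 to 10 higher and 1 to 3 lower. In Bcl6LKO livers 1 member was higher with no filter. With equal totals, which also lowered the median of all genes, 0 were higher and 15 lower. Under those totals Eif2ak3 (-0.0567), Atf6 (-0.18) and Atf4 (-0.20) changed sign. In PparaKO livers 1 member was lower with no filter and 1 with quantile normalization. Of called members, 12 of 15 for fasting, 5 of 9 for Bcl6LKO, 4 of 10 for PparaKO and 18 of 23 for DKO passed under every setting in which they were tested. With the replicate block fasting gave 4 higher and 11 lower, with no change in any member's call, Bcl6LKO 2 and 6, and PparaKO 6 and 2. In the latter 2 and in DKO the numbers do not pair the samples (correlations -0.13 to 0.10). Why calls changed was not tested. The tables hold no counts, so depth sets no stated limit.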

Other observations

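Genes linked to CREBH, the product of Creb3l3, are given here beside Creb3l3 itself. Creb3l3 rose with fasting (0.47, SE 0.07) and was lower in PparaKO livers (-0.20, SE 0.07). Of 9 tested CREBH-linked genes 5 rose and 1 fell with fasting (all genes 11.9% and 11%), 4 rose and 1 fell in PparaKO livers (11.7% and 13.3%), and 5 rose and 0 fell in DKO livers (19.3% and 20.8%), also without DKO replicates 3 and 4. In Bcl6LKO livers 3 of 7 rose and 0 fell (18.3% and 19.8%). The apolipoprotein gene Apoa4 was higher in all 4 comparisons, by 1.47 (SE 0.31) with fasting, 1.93 (SE 0.20) in Bcl6LKO, 2.78 (SE 0.31) in PparaKO and 2.05 (SE 0.27) in DKO livers. Apcs, the serum amyloid P gene, fell with fasting (-0.73, SE 0.10) and rose in PparaKO (1.77, SE 0.36) and DKO livers (2.06, SE 0.15). Fgf21, a fasting hormone that is also an ATF4 target and was picked after its values were seen, had levels of 5.58, 4.98, 6.02 and 5.31 in WT replicates 1 to 4 and of 5.18, 5.33, 4.76 and 5.09 in the DKO ones, so that the groups overlapped (-0.38, SE 0.20, adjusted p = 0.164).

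The 4 fasted WT libraries were far from alike for a few members. In the fasting table Asns was 6.28, 6.19, 8.24 and 7.67 and Herpud1 13.24, 13.07, 12.39 and 12.21 in fasted WT replicates 1 to 4. Bcl6 in the same libraries was 9.08, 9.57, 7.80 and 7.52. In fed WT livers Herpud1 lay within 12.49 to 12.58, whereas Asns was 6.01, 7.26, 7.03 and 7.56 and Bcl6 8.19, 9.30, 10.40 and 10.10.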
